A study of Mus musculus with 12 samples.

Results

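The question examined was how the effect of losing Nsd2 on each transcript of diabetic mouse podocytes differed between 20 and 28 weeks of age. For every gene, the change of the knockout effect was the log2 fold change of knockout over control at 28 weeks minus the log2 fold change of knockout over control at 20 weeks. A positive value means that the knockout sat higher against its control at 28 weeks than at 20 weeks, and a negative value that it sat lower. Genes entered when both ages' count tables listed them, which held for 22290 of the 25316 genes listed at either age, and 15662 of these passed a filter on low counts and were tested. The 4 groups had 3 libraries each. Control podocytes at 20 weeks (20W-Con) and at 28 weeks (28W-Con) were Cre-/Nsd2fl/fl, that is, from mice with floxed Nsd2 alleles and no Cre recombinase. Knockout podocytes at 20 weeks (20W-KO) and at 28 weeks (28W-KO) were Cre+/Nsd2fl/fl, with a Cre that the series describes as podocyte-specific and whose promoter the labels do not name. All 12 libraries shared the floxed alleles and the HFD/STZ diabetes model, a high-fat diet with the beta-cell toxin streptozotocin, so no group was without diabetes and no control carried Cre. Nothing in the labels ties a library to its own mouse or says whether mice were pooled. The p-values therefore measure only the spread between libraries, which may be technical. The labels give 1 batch to all libraries, but each age was deposited as its own table, so age and anything else that separated the tables cannot be told apart.

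NSD2 is a chromatin enzyme that adds 2 methyl groups to lysine 36 of histone H3, a modification found over active genes and the intergenic domains around them. Podocytes are the epithelial cells whose foot processes cover the glomerular capillaries. Neighbouring foot processes are joined by the slit diaphragm, built around nephrin (Nphs1), and are held to the basement membrane by integrin alpha-3/beta-1 (Itga3). Loss of these proteins and of the surface sialomucin podocalyxin (Podxl) is a known feature of podocyte injury in diabetes. The Hippo pathway, which the study's title names, restrains the transcriptional co-activators YAP and TAZ through the kinases LATS1 and LATS2.

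Transcripts of 2 podocyte markers were found in every library. Wt1 lay between 29.0 and 91.5 CPM (read counts relative to the scaled library size) and Nphs1, the slit diaphragm's defining protein, between 0.917 and 15.3 CPM. All 40 genes of a podocyte list passed the filter, which a gene can do through a single group. Averaged over all libraries, Podxl stood at 400 CPM, Synpo at 234, Wt1 at 56.8 and Nphs1 at 5.54. Of the list of epithelial junctions and keratins, Krt18 stood at 556 CPM and Cdh1 at 250. Counts per library ran from 31405349 to 38989180. The 28W-KO totals (31405349 to 35547010) all lay below the 28W-Con totals (38625577 to 38989180), and a gene with 0 counts in a library could have been present at up to 0.0769 to 0.0955 CPM, the value of 3 counts. Libraries differed in ways that the 4 groups do not explain. On the first principal component (59.98% of the variance) the controls lay between -50.7 and -31.6, while the knockout libraries numbered 1 lay at 9.96 and 11.5, nearer to the controls than the other knockouts (30.3 to 74.1). On the second (16.88%), 28W-Con1 and 28W-KO1 sat at opposite ends, at 38.9 and -56.2. The libraries 28W-Con2 and 28W-Con3 were far more alike than any other pair of one group: their biological coefficient of variation was 0.0481 against 0.2295 to 0.4186 for the others. A mean chi-square of 4.56 over 15090 genes put them beyond sampling noise, so they were kept as 2 libraries. That value does not show that they are independent samples, and 28W-Con may hold fewer independent samples than libraries. Some results below are also given without some of these libraries, and a value given only with all libraries may still depend on them.

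No gene's change of knockout effect passed an adjusted p of 0.05 in edgeR's quasi-likelihood test over the 12 libraries (0 of 15662, 0%; the smallest adjusted p was 0.538). At an unadjusted p under 0.05 there were 1428 genes, 9.12% of those tested, of which 782 (4.99%) were positive and 646 (4.12%) negative. DESeq2 on the same counts and contrast called 34 genes, 16 positive and 18 negative, among the 13781 to which it gave an adjusted p. Of the genes described below, it called Itga3, Npnt, Ptpro, Timp3, Myo5b, Fzd1, Fzd5, Gpc3, Arhgef16, Kif13b, Sh3d19, Trp53bp2 and Scd2 on the negative side and Psmb8, Lyz2, Ccl9, Tmsb4x, Ift20, Tmem70 and Sh3gl3 on the positive side. The values below are therefore estimates with their intervals, and a gene's change of effect is described by size and not as a call. The knockout effect itself was called for 1742 genes at 20 weeks (11.1%; 745 higher, 4.76%, and 997 lower, 6.37%, in the knockout) and for 3091 at 28 weeks (19.7%; 1364 higher, 8.71%, and 1727 lower, 11%). With 28W-Con2 and 28W-Con3 summed, 769 genes were higher at 28 weeks, so the counts at the 2 ages are not like for like. Across genes the effects at the 2 ages, which share no library, had a Pearson correlation of 0.681, or 0.734 over the 10776 genes averaging 5 CPM or more; genes are not independent replicates. The median change of effect was 0.05 and the median of its absolute value 0.35, against a median standard error of 0.38. The median 95% interval reached 0.84 to either side with 3 libraries a group. For a typical gene an estimate of about this size would only just reach an unadjusted p of 0.05, and passing the adjusted p takes a larger one.

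**Figure D1:**
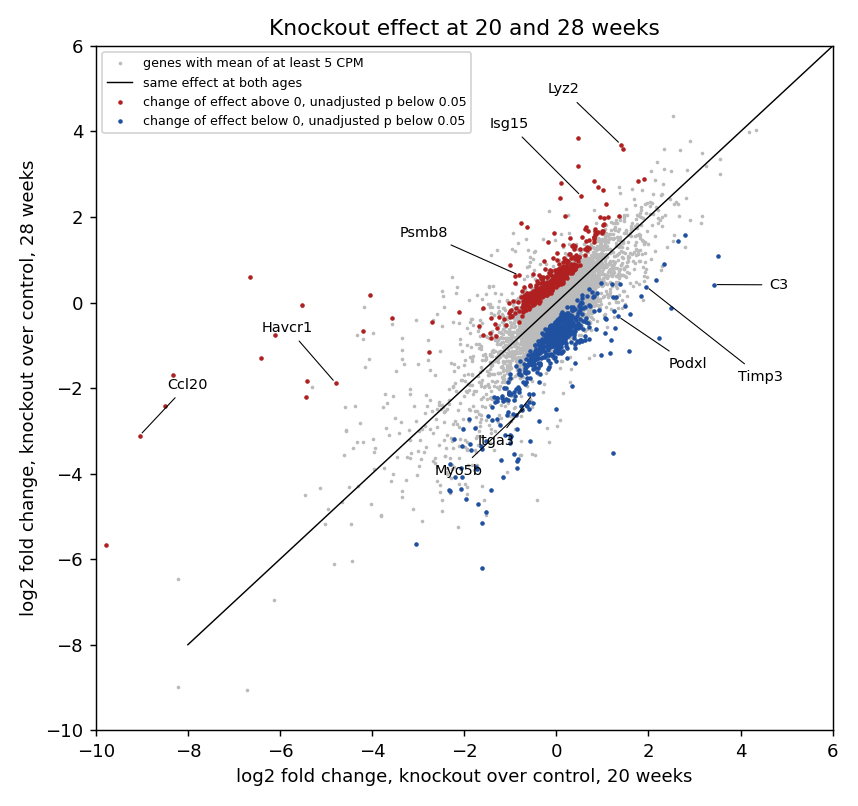
Each point is a gene averaging 5 CPM or more, plotted by its log2 fold change of knockout over control at 20 weeks (x axis) and at 28 weeks (y axis), and the line marks equal effects at both ages. Red and blue points had an unadjusted p under 0.05 for a positive or negative change of effect, and most of the 10776 genes lie along the line (correlation 0.734).

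Nsd2 (5:33820725-33897975 on the plus strand, GRCm38) was lower in the knockout at both ages. It stood at 97.1, 66.7 and 77.8 CPM in 20W-Con, at 52.3, 31.6 and 45.1 CPM in 20W-KO, at 88.0, 79.4 and 81.7 CPM in 28W-Con and at 34.9, 35.2 and 43.0 CPM in 28W-KO. Knockouts and controls did not overlap at either age. Its knockout effect was -0.90 at 20 weeks (adjusted p = 0.0172 in edgeR) and -1.14 at 28 weeks (adjusted p = 0.00338). The difference of these was -0.23 with a 95% interval from -0.84 to 0.37 (unadjusted p = 0.411), so a different depth of depletion at the 2 ages was not detectable. Transcript remained in every knockout library. Nsd2 shares exon bases with its neighbour Nelfa, and the strand setting of the counting is not given, so part of its counts may belong to that gene.

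Among podocyte genes the estimates leaned one way: 38 of the 40 tested had a negative change of effect, with a list median of -0.91 against 0.05 for all genes. The list's median knockout effect was 0.80 at 20 weeks and -0.12 at 28 weeks. At 20 weeks 5 members were called higher and 1 lower in the knockout, and at 28 weeks 0 were called higher and 5 lower. Of all genes tested, 4.76% were called higher and 6.37% lower at 20 weeks, and 8.71% and 11% at 28 weeks. The 5 lower members at 28 weeks are thus near the share of all genes. These shares are the background for the called members of every list below. For the change of effect itself, 9 members had a negative value with an unadjusted p under 0.05 and 0 a positive one, where 4.12% and 4.99% of all genes did. The lean rested in part on a single pair of libraries: without 28W-Con1 the list median was -0.45, and without both 28W-Con1 and 28W-KO1 it was -0.23. The mean log2 CPM of the list lay at 5.63 to 6.38 in 20W-Con and at 6.54 to 6.87 in 20W-KO, which did not overlap. At 28 weeks it was 6.76, 5.87 and 5.93 in the controls and 5.36, 6.37 and 6.15 in the knockouts, with 28W-Con1 the highest and 28W-KO1 the lowest of the 6. In RNA of a whole sample, fewer podocytes and less podocyte RNA per cell cannot be told apart.

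Itga3, the alpha chain of the laminin receptor that anchors podocytes to the glomerular basement membrane, had the smallest p of the negative genes. It stood at 676, 608 and 473 CPM in 20W-Con, 500.1, 416 and 320.3 in 20W-KO, 1152, 849 and 849 in 28W-Con and 238, 232 and 178 in 28W-KO. The 2 groups overlapped at 20 weeks, and at 28 weeks every knockout library was below every control. Its knockout effect was -0.51 at 20 weeks (adjusted p = 0.15) and -2.14 at 28 weeks (adjusted p = 0.000566), where Itga3 (11:95044474-95076801, minus strand) fell. The change of effect was -1.63 ± 0.30 (SE; 95% interval -2.29 to -0.97, unadjusted p = 0.000198). DESeq2 gave it an adjusted p of 0.00318, and the highest among all alternatives was 0.935, in the fit without 28W-Con1. It was -1.54 without 28W-Con1 and 28W-KO1, so this gene's estimate did not rest on those libraries. Npnt encodes nephronectin, a matrix protein made by podocytes that binds integrins on the mesangial side. Its levels were 176, 154 and 119 CPM in 20W-Con, 151, 135 and 146 in 20W-KO, 235, 197 and 193 in 28W-Con and 104, 114 and 95.9 in 28W-KO. The genotypes overlapped at 20 weeks and were apart at 28 weeks, when Npnt fell by 1.00 (adjusted p = 0.00226), and its change of effect was -0.94 ± 0.22.

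Several apical and slit diaphragm genes had large negative estimates with wide intervals. Podxl (6:31519488-31563981, minus strand), the negatively charged coat protein that keeps foot processes apart, was at 365, 243 and 151 CPM in 20W-Con, 612, 676 and 628 in 20W-KO, 587, 293 and 303 in 28W-Con and 148, 436 and 362 in 28W-KO. Its knockouts were all above the controls at 20 weeks and mixed with them at 28 weeks. The change of effect was -1.66 (95% interval -2.96 to -0.36), and -0.92 without 28W-Con1 and 28W-KO1. Ptpro, the receptor tyrosine phosphatase GLEPP1 of the podocyte's apical membrane, was chosen here after its values were seen. It stood at 35.3, 20.5 and 17.3 CPM in 20W-Con, 65.6, 49.3 and 50.3 in 20W-KO, 60.7, 54.9 and 58.0 in 28W-Con and 18.7, 53.1 and 22.9 in 28W-KO. At 20 weeks all its knockouts exceeded all its controls and at 28 weeks all were below them, and the change of effect was -2.05 (-3.20 to -0.90), or -1.75 without the same 2 libraries. Nphs1 had 7.72, 4.86 and 1.43 CPM in 20W-Con and 1.74, 6.81 and 5.42 in 20W-KO, which overlapped. At 28 weeks it had 15.3, 8.58 and 8.73 CPM in controls and 1.43, 3.49 and 0.917 in knockouts, where it fell (-2.49, adjusted p = 0.0296 in edgeR); the change of effect was -2.48 ± 0.95. Nphs1 shares exon bases with the antisense gene Nphs1os, and reads of the 2 cannot be told apart without strand.

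Synpo and Wt1 showed how much 28W-Con1 and 28W-KO1 could weigh. Synpo, the actin-binding protein synaptopodin of foot processes, was at 190.2, 118 and 104 CPM in 20W-Con and 317, 455 and 419 in 20W-KO. At 28 weeks it was at 369.8, 101 and 102 CPM in controls and 48.2, 322 and 266 in knockouts, so replicate 1 of each group lay on the far side of the other group. Its change of effect was -1.38 (-3.38 to 0.61) with all libraries. It was -0.00099 without those 2. Wt1, the transcription factor that maintains podocyte identity, had a change of effect of -0.55 (-1.74 to 0.65) with all libraries and 0.18 without them. Other members with an unadjusted p under 0.05, named after their values were seen, were the slit diaphragm-associated receptor gene Robo2 (-1.63 ± 0.48), the basement membrane collagen gene Col4a5 (-1.17 ± 0.49) and the junction scaffold gene Tjp1 (-1.08 ± 0.48). Robo2 and Col4a5 rose in the knockout at 20 weeks (2.15, adjusted p = 0.00561, and 1.30, adjusted p = 0.0376) and were not called at 28 weeks (0.52 and 0.13).

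**Figure D2:**
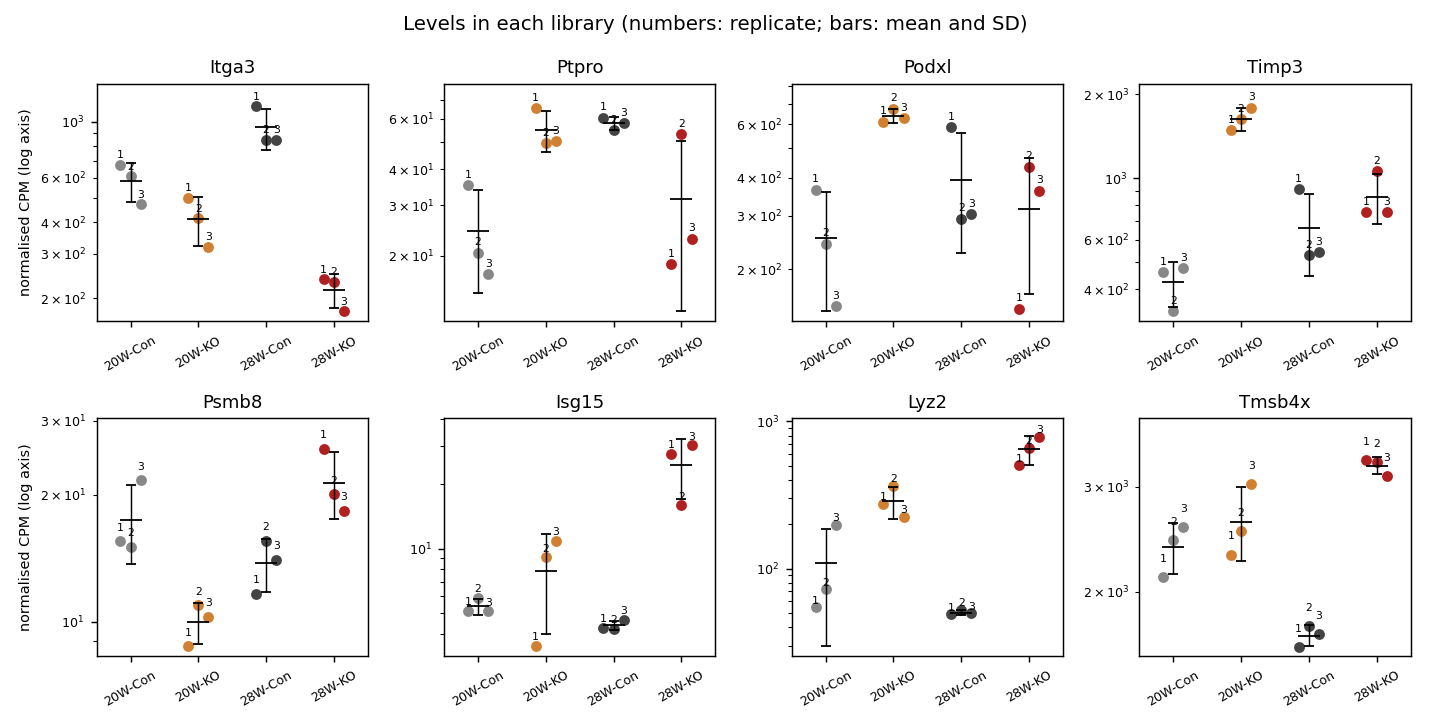
Level of 8 genes in each library on a log axis of normalised CPM, with the replicate number at each point and bars for the mean and SD of 3 libraries. Itga3 and Tmsb4x separate the genotypes at 28 weeks and overlap at 20 weeks, Timp3 separates them at 20 weeks, and in Podxl and Ptpro the 28W-KO libraries are spread.

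Timp3 (10:86300372-86349506, plus strand), an inhibitor of matrix metalloproteinases and of the shedding enzyme ADAM17, rose in the knockout at 20 weeks by 1.95 (adjusted p = 0.00262) and was not called at 28 weeks (0.37, adjusted p = 0.312). It was at 459, 333 and 476 CPM in 20W-Con and at 1485, 1627 and 1792 in 20W-KO, which are far apart. At 28 weeks the controls had 914, 530.1 and 542 CPM and the knockouts 758, 1058 and 756, and these overlapped through 28W-Con1. The change of effect was -1.58 ± 0.33 (-2.31 to -0.84, unadjusted p = 0.000639), and -1.19 without 28W-Con1 and 28W-KO1. Timp3 lies within Syn3 and shares exon bases with it in the annotation. The 35 matrix genes tested, which include collagens, fibulins and enzymes that crosslink or cut the matrix, had a list median of -0.22, with 26 negative, 2 of them and 1 positive member at an unadjusted p under 0.05. In the knockout, 14 of the 35 members rose at 20 weeks and 12 at 28 weeks, 0 fell at either, and the others were not called. The other negative member was Fbln5, encoding the elastic fibre protein fibulin-5, with 17.1, 18.0 and 21.3 CPM in 20W-Con, 103, 98.1 and 82.7 in 20W-KO, 37.5, 20.7 and 22.6 in 28W-Con and 32.9, 69.7 and 49.2 in 28W-KO. It rose at both ages (2.33, adjusted p = 0.00262, and 0.91, adjusted p = 0.0419), and the change of effect was -1.43 ± 0.39, or -0.88 without 28W-Con1 and 28W-KO1. The matrix list's own median was 0.24 without those 2 libraries and, with single libraries left out, ran from -0.66 without 20W-Con3 to 0.0022 without 28W-Con1.

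Genes that interferon switches on leaned the other way. Interferon-stimulated genes carry, close to their starts, a response element built from spaced GAAA blocks, which is bound by STAT and IRF transcription factors. The pattern GAAANNGAAA, or TTTCNNTTTC on the other strand, was searched in the 250 bases before each gene's start in the RefSeq promoter table (GRCm38.p6), with overlapping matches kept. It occurred in 978 of 32851 promoters (2.98%). Of the 26 interferon genes tested, 23 had a promoter in the table and 10 of these held the pattern in any of their promoters. The first share counts promoters and the second counts genes, so they are not like for like. The 4 windows shown are those of the members that had both the pattern and a positive change of effect with an unadjusted p under 0.05. Capitals mark the matching bases, and the strand is that of the gene:
Isg15, chr4:156200865-156200906, minus: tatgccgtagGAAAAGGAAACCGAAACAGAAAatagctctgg
Bst2, chr8:71537577-71537612, minus: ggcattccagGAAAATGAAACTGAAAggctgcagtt
Oas1a, chr5:120907526-120907555, minus: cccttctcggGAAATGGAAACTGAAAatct
Gbp3, chr3:142559989-142560024, plus: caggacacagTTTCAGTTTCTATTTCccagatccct
The overlapping blocks gave 3 matches in Isg15 and 2 in each of the others. Among the members without such a change, 6 of the 18 with a promoter held the pattern, and the Psmb8 window did not hold it. A match is a description of the letters and was not tested as a binding site.

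The interferon list's median change of effect was 0.46, with 18 of 26 positive and 6 of these, against 0 negative ones, at an unadjusted p under 0.05 (4.99% of all genes were positive at that level). In the knockout 5 members rose and 1 fell at 20 weeks, and 9 rose and 0 fell at 28 weeks. Its median was 0.14 without 28W-KO replicate 3, 0.30 without 20W-KO1 and 0.78 without 28W-Con1 and 28W-KO1. Isg15 (4:156199424-156200818, minus strand), a ubiquitin-like protein that interferon induces, was at 5.13, 5.90 and 5.11 CPM in 20W-Con, 3.53, 9.13 and 10.9 in 20W-KO, 4.29, 4.24 and 4.66 in 28W-Con and 27.7, 15.9 and 30.2 in 28W-KO. The genotypes overlapped at 20 weeks through 20W-KO1 and were apart at 28 weeks, when Isg15 rose by 2.49 (adjusted p = 0.00208). Its change of effect was 1.94 ± 0.51 (0.82 to 3.06, unadjusted p = 0.00287). Ifi27, another interferon-induced gene, rose at both ages (1.00, adjusted p = 0.00767, and 1.63, adjusted p = 0.000608), with a change of effect of 0.64 (0.09 to 1.18).

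Psmb8 was the only gene called in opposite directions at the 2 ages. It encodes the immunoproteasome subunit beta-5i, which replaces a standard proteasome subunit in antigen processing. It lay at 15.5, 15.0 and 21.7 CPM in 20W-Con and 8.74, 10.9 and 10.3 in 20W-KO. At 28 weeks it lay at 11.6, 15.6 and 14.0 CPM in controls and 25.7, 20.1 and 18.3 in knockouts. All knockouts were below the controls at 20 weeks and above them at 28 weeks. Psmb8 fell by 0.80 at 20 weeks (adjusted p = 0.0282) and rose by 0.64 at 28 weeks (adjusted p = 0.0448), and the change of effect was 1.44 ± 0.28 (0.82 to 2.06, unadjusted p = 0.00034). Its lowest adjusted p over all alternatives was 0.0216, with DESeq2, and its highest 0.935, without 28W-Con1. The value was 1.18 without 28W-Con1 and 28W-KO1. The opposite calls themselves lie close to the threshold: 0 genes were called in opposite directions in most fits without 1 library, with each age fitted alone, with the length trend removed or without 28W-Con1 and 28W-KO1. Psmb8 (17:34197721-34201454, plus strand) shares exon bases with the gene model Gm20496. Of the members shown with their promoters, Bst2, the tethering factor tetherin, had a change of effect of 0.85 (0.09 to 1.61). Oas1a, a double-stranded RNA sensor, had 0.97 (0.07 to 1.88) and Gbp3, a guanylate-binding GTPase, 1.64 (0.06 to 3.21). These 3 were not called at either age, they were chosen after their values were seen, and near-identical copies of Oas1a and Gbp3 may have shared reads with them.

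Markers of leukocytes had the largest list median of all, 1.84, and all 19 members tested, of 24 listed, were positive, 7 of them at an unadjusted p under 0.05. The list's median knockout effect was -0.48 at 20 weeks and 1.08 at 28 weeks. In the knockout 1 member rose and 1 fell at 20 weeks, and 3 rose and 0 fell at 28 weeks. Of all genes, 4.76% rose and 6.37% fell at 20 weeks, and 8.71% and 11% at 28 weeks. The summed level of the list was 119, 142 and 529 CPM in 20W-Con, 445, 449 and 278 in 20W-KO, 115, 161 and 158 in 28W-Con and 718, 890.4 and 910.3 in 28W-KO. Lyz2, the lysozyme of macrophages and neutrophils, made up most of the sum in 28W-KO. Its own levels were 54.6, 72.4 and 199 CPM in 20W-Con, 275, 364 and 224 in 20W-KO, 48.9, 52.2 and 49.8 in 28W-Con and 502, 659 and 787 in 28W-KO. Knockouts exceeded controls at both ages, with a wider gap at 28 weeks. Lyz2 (10:117277331-117282321, minus strand) rose by 1.40 at 20 weeks (adjusted p = 0.0492) and by 3.69 at 28 weeks (adjusted p = 0.000887), and the change of effect was 2.29 ± 0.57 (1.03 to 3.55). Its near copy Lyz1 may have shared reads with it.

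The library 20W-Con3 carried more of these markers than the other controls, for example 51.5 CPM of the complement gene C1qb against 4.41 and 3.03. Without it the list median was 0.52, and the change of effect of Lyz2 was 1.51. Fcer1g, the signalling chain shared by leukocyte Fc receptors and named after its values were seen, was at 3.55, 3.06 and 9.73 CPM in 20W-Con, 4.54, 4.26 and 2.88 in 20W-KO, 1.91, 3.24 and 3.25 in 28W-Con and 6.35, 10.0 and 6.10 in 28W-KO. It rose at 28 weeks (1.42, adjusted p = 0.0445), with a change of effect of 1.90 ± 0.62. The pan-leukocyte marker Ptprc, also chosen after its values were seen, was at 11.1, 1.97 and 3.61 CPM in 28W-KO against 1.42, 5.01 and 5.53 in 28W-Con, which overlapped. The part of leukocyte RNA in the interferon and chemokine values was not tested.

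**Figure D3:**
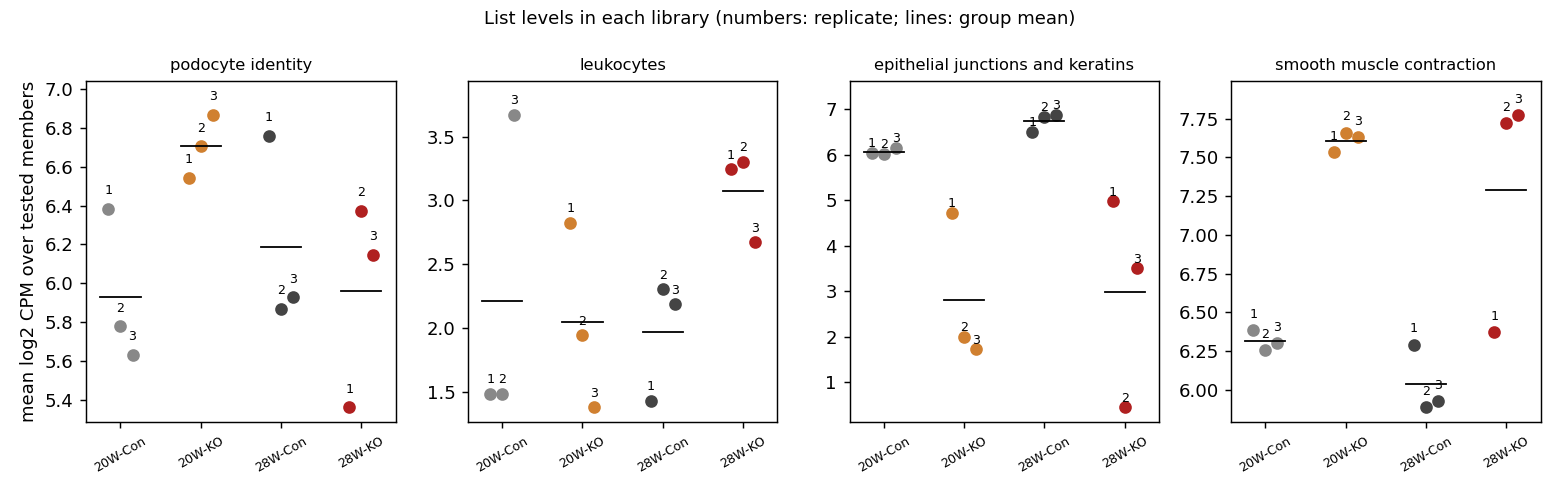
Mean log2 CPM of 4 gene lists in each of the 12 libraries, with the replicate number at each point and a line at each group's mean. Podocyte genes lie at 6.54 to 6.87 in 20W-KO and at 6.76 in 28W-Con1, leukocyte genes at 3.67 in 20W-Con3 and 2.67 to 3.30 in 28W-KO, and epithelial genes of the knockouts are highest in the libraries numbered 1.

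Chemokines and targets of the inflammatory factor NF-kB had a list median of 1.11, with 25 of 33 positive, 8 of these and 1 negative member at an unadjusted p under 0.05. At 20 weeks 2 members rose and 6 fell in the knockout, and at 28 weeks 6 rose and 4 fell. Of all genes, 4.76% rose and 6.37% fell at 20 weeks, and 8.71% and 11% at 28 weeks, so the 4 that fell are near that share. The list median was 0.12 without 28W-KO replicate 3 and 0.59 without 20W-Con3. Ccl2, the main monocyte attractant, which was chosen after its values were seen, was at 21.0, 28.6 and 24.9 CPM in 20W-Con, 52.6, 24.6 and 26.3 in 20W-KO, 7.52, 22.3 and 22.9 in 28W-Con and 23.2, 229 and 232 in 28W-KO. The other 28-week knockouts were far above the rest while 28W-KO1 was near the level of its controls, and the change of effect was 2.72 ± 0.98. Nfkbia, which encodes the NF-kB inhibitor that NF-kB itself induces and was chosen in the same way, had a similar pattern, with 64.6, 142 and 141 CPM in 28W-KO against 53.2 to 61.9 in 28W-Con, and a change of effect of 1.11 ± 0.40. Ccl9, a myeloid chemokine, rose at 28 weeks (2.45, adjusted p = 0.00368), from 1.39, 3.09 and 3.63 CPM in 28W-Con to 9.55, 16.1 and 18.8 in 28W-KO, and its levels of 2.64 to 5.42 and 2.74 to 5.10 CPM in 20W-Con and 20W-KO overlapped. Its change of effect was 2.38 ± 0.59.

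A pair of chemokine genes were close to absent in the 20-week knockouts. Ccl20, which attracts CCR6-bearing lymphocytes, had 84.1, 48.9 and 18.8 CPM in 20W-Con and 0.280, 0 and 0 in 20W-KO, and 28.5, 62.1 and 60.2 in 28W-Con against 3.39, 0.0986 and 13.9 in 28W-KO. Knockouts were below controls at both ages, with a wide spread at 28 weeks. The fitted change of effect, 5.94 with an interval from 1.84 to 10.03, depends on the prior count used for libraries at 0, and was 10.74 without 20W-KO1. Cxcl2, a neutrophil attractant, had 9.24, 7.15 and 1.48 CPM in 20W-Con, 0.140, 0 and 0.0285 in 20W-KO, 11.3, 3.02 and 3.23 in 28W-Con and 3.86, 0.0658 and 22.7 in 28W-KO. The 28-week knockouts thus held both the lowest and the highest value of that age, and its fitted change of effect was 7.26 (2.49 to 12.04).

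Genes for small, abundant housekeeping proteins had mostly positive estimates, and over all genes the estimates went with transcript length. All 33 ribosomal protein genes tested had a positive change of effect, with a list median of 0.63 and 16 of 33 at an unadjusted p under 0.05. In the knockout 8 of them fell at 20 weeks and 0 were called at 28 weeks. Rpl23, of the large ribosomal subunit, was at 604, 781 and 593 CPM in 20W-Con, 390.2, 414 and 439.7 in 20W-KO, 471, 619.9 and 653 in 28W-Con and 638, 596 and 503 in 28W-KO. It fell at 20 weeks (-0.67, adjusted p = 0.0271), its genotypes overlapped at 28 weeks, and its change of effect was 0.66 ± 0.23. Genes of oxidative phosphorylation had a median of 0.34 (26 of 29 positive, 6 at an unadjusted p under 0.05), and oxidant and antioxidant enzymes one of 0.41 (23 of 29 positive, 5 at that level). Prdx1, which encodes the peroxide-reducing enzyme peroxiredoxin 1, was at 1072, 1444 and 1630.4 CPM in 20W-Con and 1034, 947 and 956 in 20W-KO. At 28 weeks it was at 793, 1167 and 1197 CPM in controls and 1935, 1531 and 1523 in knockouts, where it rose (0.66, adjusted p = 0.0373). Its change of effect was 1.16 ± 0.28. Tmsb4x (X:167207093-167209315, minus strand), encoding the actin-sequestering peptide thymosin beta-4, had 2121, 2441 and 2570.1 CPM in 20W-Con, 2310.2, 2529 and 3032 in 20W-KO, 1619, 1752 and 1699 in 28W-Con and 3333, 3306 and 3133 in 28W-KO. Its genotypes overlapped at 20 weeks and were apart at 28 weeks, and the change of effect was 0.80 ± 0.19. Near copies of Tmsb4x and of ribosomal protein genes may have shared reads with them.

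Over the genes averaging 5 CPM or more, the change of effect fell with the transcript length implied by the deposited FPKM values, with a Spearman correlation of -0.447 across genes, which are not independent. The knockout effect had a correlation with length of 0.04 at 20 weeks and of -0.31 at 28 weeks. In 5 bins of increasing length the median change of effect was 0.29, 0.08, -0.08, -0.17 and -0.24. In the shortest bin (253 to 2005 bases) 282 genes were positive and 13 negative at an unadjusted p under 0.05, and in the longest (6926 to 114472 bases) 18 and 153. The gap between long and short transcripts also varied within groups. It was 0.46 in 28W-Con1 and 0.04 and 0.08 in the other 28-week controls, and -0.70, -0.38 and 0.02 in 28W-KO. The 3 libraries of 20W-KO had 0.36, -0.40 and 0.28, and those of 20W-Con 0.34, -0.16 and 0.12. With this trend removed from each library (an alternative chosen after seeing the data), the list median was 0.26 for ribosomal proteins, of which 2 of 33 still had an unadjusted p under 0.05, 0.01 for oxidative phosphorylation and 0.08 for oxidant and antioxidant enzymes. It was -0.81 for podocyte genes, 1.49 for leukocyte markers and 0.39 for interferon genes. Tmsb4x was then at 0.46, Prdx1 at 0.91, Itga3 at -1.47 and Timp3 at -1.44.

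**Figure D4:**
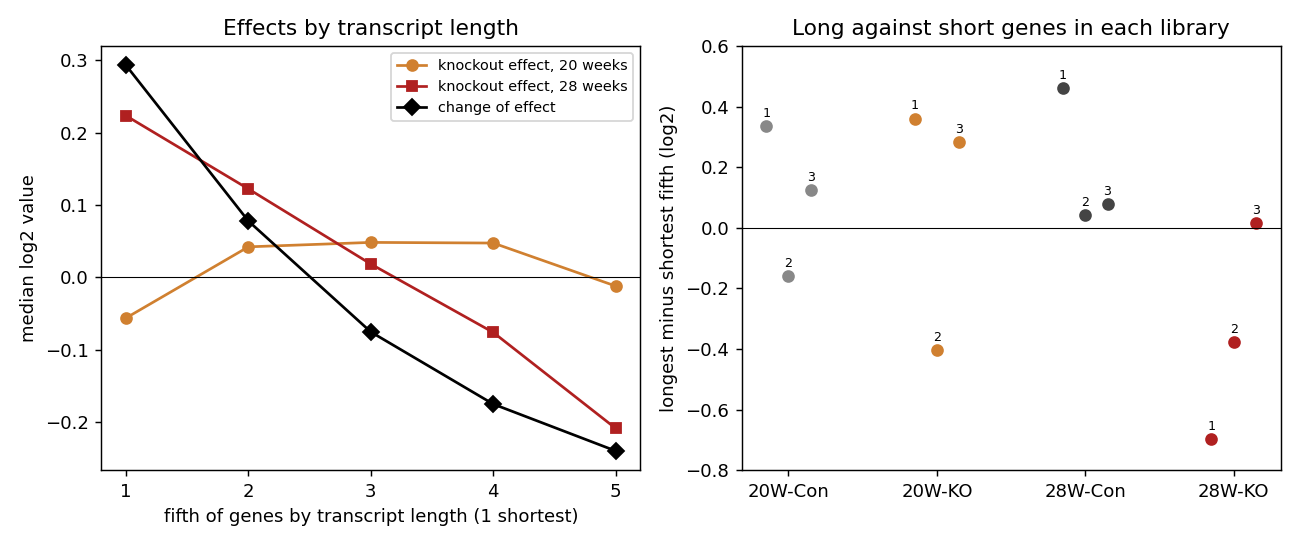
Left, median log2 value in 5 bins of increasing transcript length for the knockout effect at each age and for its change, which runs from 0.29 in the shortest bin to -0.24 in the longest. Right, the longest minus the shortest bin (log2) in each library, by group and with its replicate number: 28W-Con1 (0.46) is the highest and 28W-KO1 (-0.70) the lowest of the 12.

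The Hippo genes showed small estimates at the level of the co-activators. Yap1, which encodes YAP, stood at 178, 156 and 144 CPM in 20W-Con, 196, 196 and 188 in 20W-KO, 193, 134 and 132 in 28W-Con and 136, 162 and 230.3 in 28W-KO. It was not called at either age, and the change of effect was -0.08 with an interval from -0.71 to 0.56. Wwtr1, which encodes TAZ, had -0.03 (-0.56 to 0.50). The kinase genes Lats1 and Lats2 had -0.34 (-1.16 to 0.47) and -0.53 (-1.34 to 0.27). All 4 intervals hold 0 and values of either sign, so equal effects at the 2 ages are not shown. Of the 38 core pathway genes, 27 were negative, with a list median of -0.28, 4 negative and 1 positive at an unadjusted p under 0.05. In the knockout 0 rose and 1 fell at 20 weeks, and 1 rose and 6 fell at 28 weeks, when 8.71% of all genes rose and 11% fell.

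The upstream regulators held the larger values. Wwc1, which encodes the LATS activator KIBRA, was at 440.2, 262 and 274 CPM in 20W-Con, 285, 95.4 and 84.6 in 20W-KO, 456, 444 and 453 in 28W-Con and 73.6, 48.5 and 94.9 in 28W-KO. Its genotypes overlapped at 20 weeks through 20W-KO1 and were apart at 28 weeks, when it fell (-2.64, adjusted p = 0.00324). The change of effect was -1.57 ± 0.60, and -0.79 without 20W-KO1. Ajuba, a LIM protein that inhibits LATS and is itself a YAP target, fell at 28 weeks from 309, 284 and 284 CPM to 140.1, 145 and 145 (-1.03, adjusted p = 0.00277). At 20 weeks its 287, 232 and 186 CPM in controls and 212, 191 and 152 in knockouts overlapped, and its change of effect was -0.69 ± 0.24. The 22 YAP/TAZ target genes had a list median of -0.45, with 17 negative and 2 of these at an unadjusted p under 0.05. In the knockout 2 of the targets rose and 0 fell at 20 weeks, and 1 rose and 3 fell at 28 weeks. The 3 that fell are near the share of all genes that fell at 28 weeks, 11%. Without 28W-Con1 and 28W-KO1 the median was -0.04 for the targets and -0.05 for the core pathway. Ccn2, encoding the matricellular growth factor CTGF and the most used YAP reporter, showed the same dependence. It was at 2995, 2805 and 2437 CPM in 20W-Con and 4439, 4815 and 4485 in 20W-KO, which were apart without being called (0.74, adjusted p = 0.128). At 28 weeks it was at 3858, 2318 and 2319 CPM in controls and 1935, 4056 and 4412 in knockouts. The change of effect was -0.45 (-1.34 to 0.45) with all libraries and 0.13 without those 2.

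Epithelial junction and keratin genes that were called were lower in the knockout at both ages, and the list's change of effect depended on the knockout libraries numbered 1. Of 34 genes for epithelial junctions and keratins, 0 rose at either age, 9 fell at 20 weeks and 16 at 28 weeks. The list's median knockout effect was -2.34 at 20 weeks and -2.90 at 28 weeks. Its median change of effect was -0.20, but 1.49 without 20W-KO1 and -1.34 without 28W-KO1. With all libraries 19 members were negative and 15 positive, of which 4 negative and 1 positive had an unadjusted p under 0.05. The mean log2 CPM of the list was 4.73 in 20W-KO1 against 1.99 and 1.72 in the other 20-week knockouts, 4.98 in 28W-KO1 against 0.45 and 3.50, and 6.02 to 6.88 in the controls. The lists for the loop of Henle to collecting duct (median -0.69, and 2.78 without 20W-KO1), the proximal tubule (-0.19 and 0.54) and the parietal epithelium (-0.02 and 0.94) took the other sign in the same way. Of all genes, 6.37% fell in the knockout at 20 weeks and 11% at 28 weeks. In these lists 12 of 23 loop of Henle genes, 1 of 11 proximal tubule genes and 4 of 15 parietal genes fell at 20 weeks. At 28 weeks 12, 1 and 2 fell, and 0 of their members rose at either age. Their part in the results of single genes was not tested. Cdh1, which encodes E-cadherin, the adhesion protein of tubular epithelium, is an example. It was at 300.0, 161 and 335 CPM in 20W-Con and 255, 9.23 and 12.8 in 20W-KO, and at 813, 521 and 531 in 28W-Con and 18.8, 2.17 and 38.1 in 28W-KO. Only 20W-KO1 among the knockouts was at a control level, and the change of effect of -3.46 (-7.05 to 0.14) became -0.39 without that library.

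Cdh1 kept a negative value in all 26 alternatives (-4.37 to -0.38), and so did Dsp, Jup and Myo5b. Other members of the list had large positive values, among them Crb3 (3.225, unadjusted p = 0.0495 in edgeR), Cldn8 (5.43) and Marveld3 (3.57). These were named after their values were seen, and their values in the alternatives were not obtained. Dsp, the desmosomal plaque protein desmoplakin, was at 109, 92.6 and 103 CPM in 20W-Con, 100.4, 20.4 and 31.3 in 20W-KO, 181, 142 and 149 in 28W-Con and 12.4, 18.9 and 24.1 in 28W-KO. It fell at 28 weeks (-3.09, adjusted p = 0.00284), and its change of effect was -2.09 ± 0.67, or -1.12 without 20W-KO1. Jup, encoding plakoglobin of the same plaques, fell at 28 weeks (-1.61, adjusted p = 0.0019) and had -1.19 ± 0.33, with a range of -1.43 to -0.95 when each library was left out in turn. Myo5b, the motor of apical recycling endosomes, was at 57.5, 46.8 and 40.3 CPM in 20W-Con, 46.3, 24.5 and 21.5 in 20W-KO, 80.4, 70.4 and 70.4 in 28W-Con and 12.0, 14.8 and 14.4 in 28W-KO. Its genotypes overlapped at 20 weeks through 20W-KO1 and were apart at 28 weeks (-2.42, adjusted p = 0.000625), with a change of effect of -1.78 ± 0.37. In the other direction, Havcr1, the tubular injury marker KIM-1, fell at 20 weeks by 4.79 (adjusted p = 0.00495), from 334, 294 and 267 CPM to 16.7, 6.21 and 9.38. At 28 weeks its controls had 164, 214 and 214 CPM and its knockouts 73.3, 7.00 and 80.4, which was not called (-1.88, adjusted p = 0.0679). The change of effect was 2.91 ± 0.92, between 2.49 and 3.43 with any 1 library left out.

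Genes of smooth muscle contraction, which contractile mesangial cells and pericytes also express, were called only in the higher direction. Of 19 tested, 10 rose at 20 weeks, 12 at 28 weeks and 0 fell at either, and the list's median knockout effect was 1.03 and 1.50. The median change of effect was 0.46, with 12 positive and 7 negative members, 3 positive and 0 negative at an unadjusted p under 0.05. By the mean log2 CPM of the list the change of the knockout effect was -0.04, so the 2 measures differ. The median was 0.20 without 28W-KO2, 0.30 without 28W-KO3 and 0.29 without 20W-Con3. Cnn1, the actin-binding protein calponin 1, was at 102, 113 and 148 CPM in 20W-Con, 237, 268 and 234 in 20W-KO, 61.0, 77.9 and 75.3 in 28W-Con and 221, 316 and 307 in 28W-KO. The genotypes were apart at both ages, and it rose by 1.02 (adjusted p = 0.00786) and by 1.98 (adjusted p = 0.000566), a change of effect of 0.95 ± 0.26. Acta2, encoding smooth muscle actin, had 2336, 6532 and 5440.0 CPM in 28W-KO against 1183 to 1227 in 28W-Con, and its change of effect was 0.51 (-0.37 to 1.40), or 0.20 without 28W-KO2 and 0.80 without 28W-KO1. Myh11, the smooth muscle myosin heavy chain, was at 7.77, 6.76 and 6.51 CPM in 20W-Con, 73.3, 57.4 and 69.9 in 20W-KO, 8.99, 3.66 and 3.61 in 28W-Con and 2.40, 74.9 and 71.7 in 28W-KO. It rose at both ages (3.25, adjusted p = 0.0382, and 3.20, adjusted p = 0.0261), although 28W-KO1 was below all its controls. Its change of effect was -0.06 with all libraries and 1.08 without 28W-Con1 and 28W-KO1. The 17 pericyte and mesangial genes had a median of -0.38, of 0.10 without these 2 libraries and of -1.04 without 28W-KO2.

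**Figure D5:**
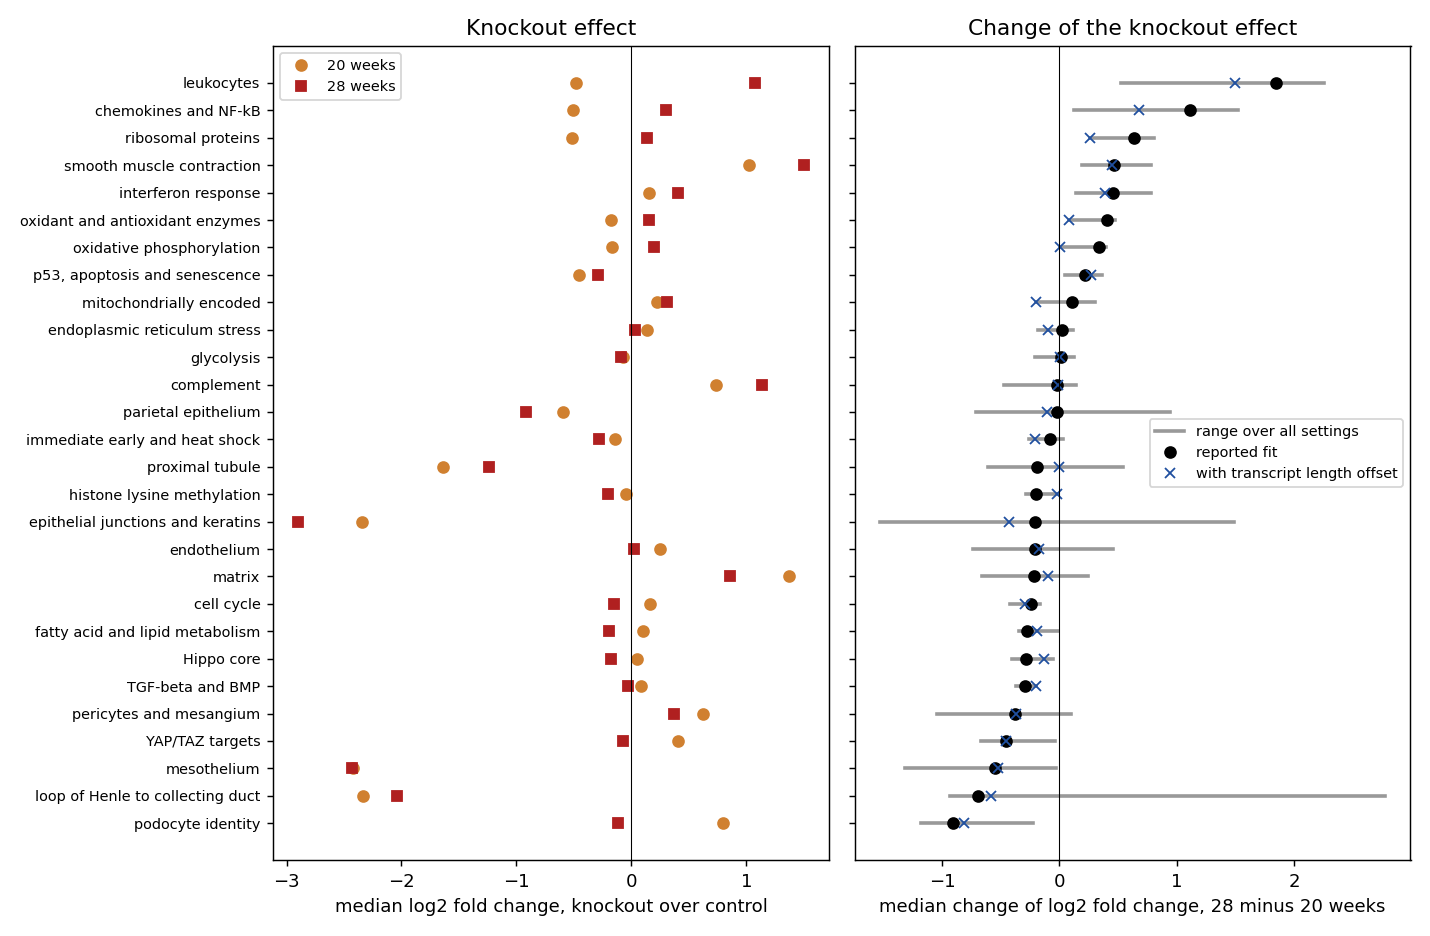
Left, median log2 fold change of knockout over control of each gene list at 20 weeks (circles) and 28 weeks (squares); right, median change of the knockout effect (log2), with black circles for the reported fit, crosses for the fit with the length trend removed and grey lines for the range over all alternatives. Leukocyte markers (1.84) and chemokines (1.11) have the highest medians of the change and podocyte genes (-0.91) the lowest, and the lines of the epithelial and loop of Henle lists cross 0 widely.

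Among the remaining genes with the smallest p, several membrane and signalling genes were lower against their controls at 28 weeks than at 20 weeks. Fzd5 and Fzd1, receptors for Wnt ligands, had -1.39 ± 0.32 and -0.83 ± 0.19. Fzd1 rose in the knockout at 20 weeks (0.56, adjusted p = 0.0264), from 26.1, 23.1 and 21.5 CPM to 37.1, 35.7 and 31.8, and at 28 weeks its 30.8, 28.5 and 27.0 CPM in controls and 22.3, 27.6 and 21.7 in knockouts overlapped. Gpc3, a heparan sulphate proteoglycan that modulates growth factors, had -2.70 ± 0.65, with 4.25, 4.33 and 1.95 CPM in 20W-Con, 7.39, 13.0 and 10.9 in 20W-KO, 15.8, 5.48 and 5.45 in 28W-Con and 4.42, 3.06 and 4.70 in 28W-KO. Its knockouts lay above the controls at 20 weeks and below them at 28 weeks, and it was called at neither. Arhgef16 (-1.36 ± 0.30), Kif13b, a kinesin (-1.18 ± 0.28), Sh3d19, an adaptor (-0.81 ± 0.20), and Trp53bp2, which encodes the p53-binding protein ASPP2 (-0.83 ± 0.20), fell at 28 weeks and were not called at 20 weeks.

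The positive genes with the smallest p included Ift20, an intraflagellar transport protein of the primary cilium. It was at 54.6, 65.5 and 67.6 CPM in 20W-Con, 68.8, 76.2 and 75.9 in 20W-KO, 48.7, 52.5 and 48.0 in 28W-Con and 98.2, 93.8 and 98.6 in 28W-KO. The genotypes were apart at both ages by these values, and it was called at 28 weeks only (0.96, adjusted p = 0.000783), with a change of effect of 0.73 ± 0.16 that was 0.43 with the length trend removed. Tmem70, an assembly factor of the mitochondrial ATP synthase, had 0.93 ± 0.20, Sh3gl3, an endophilin, 1.59 ± 0.36, and Gng11, a G protein gamma subunit, 1.13 ± 0.26. All 3 rose at 28 weeks and were not called at 20 weeks. Hacd1, a fatty acid elongation enzyme, rose at 28 weeks (1.31, adjusted p = 0.000946) and had 0.93 ± 0.23.

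For most genes called at both ages, as for most of all genes tested, the size of the knockout effect could not be told apart between the ages. Of the 1148 genes called in the same direction at both ages, 538 were higher in the knockout, with a median change of effect of 0.12 and an interval holding 0 in 498, and 610 were lower, with a median of -0.09 and an interval holding 0 in 551. Of all genes tested, 9.12% had an interval that left out 0, so the genes called at both ages are near that share. For a few genes the interval was narrow enough to bound the difference closely. They were picked for the smallest standard errors among genes called at both ages, so their narrow intervals follow from that choice. Ppic, which encodes the secretory-pathway prolyl isomerase cyclophilin C, was at 132, 134 and 145 CPM in 20W-Con, 213, 212 and 218 in 20W-KO, 128, 124 and 124 in 28W-Con and 205, 211 and 205 in 28W-KO. It rose by 0.64 (adjusted p = 0.00412) and by 0.73 (adjusted p = 0.00108), and the difference of 0.09 had an interval from -0.20 to 0.38. With the length trend removed the difference was -0.18. Mcl1, the anti-apoptotic BCL2 relative, rose by 0.47 and 0.44 (adjusted p = 0.0167 and 0.0111), with a difference of -0.03 (-0.34 to 0.29). Hadhb, of mitochondrial fatty acid oxidation, had 0.06 (-0.25 to 0.37) and Pex19, of peroxisome assembly, 0.05 (-0.26 to 0.37). Of all genes tested, 9386 had an interval that reached less than 1 to either side, so for these the change of effect was bounded to within 1 log2 unit of its estimate.

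A call at 1 age was mostly not a measured difference between ages. Of the 1942 genes called at 28 weeks and not at 20 weeks, 825 were higher in the knockout (median change of effect 0.42), and the interval of the change held 0 in 585 of these. The other 1117 were lower (median -0.62), and it held 0 in 748. Of the 593 genes called at 20 weeks and not at 28 weeks, 207 were higher (median -0.59, interval holding 0 in 171) and 386 lower (median 0.96, interval holding 0 in 238). These medians have the sign that the choice of the genes gives them and show nothing more. Of all genes tested, 9.12% had an interval that left out 0, and the choice of the genes bears on that share as well. The number called at 28 weeks and not at 20 ran from 906 without 28W-KO replicate 2 to 2986 without 20W-KO replicate 2.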

How the data were processed

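The authors deposited, for each age, unnormalised read counts by gene symbol and, in a second table, FPKM values of the same libraries, per the file headers. GRCm38 (mm10) is the build that the submitters' processing notes name. For the aligner, counter, strandedness and gene models, the labels and headers say nothing. The count tables listed 23829 (20 weeks) and 23777 (28 weeks) genes and were joined on symbol. One edgeR 4.0.16 model in R 4.3.3 held a mean for each of the 4 groups (TMM scaling, filterByExpr, quasi-likelihood F test), the change of effect was its contrast, and p-values were adjusted by Benjamini-Hochberg over all 15662 genes. Standard errors and 95% intervals come from that fit, and CPM use its scaled library sizes. DESeq2 1.42.0, limma 3.58.1 (voom, and log2 of FPKM + 0.1), other filters, scalings and left-out libraries were the alternatives. The scripts were tested on simulated data. Genes and gene lists were chosen with earlier results of these data known. Named genes were Nsd2, the 12 with the smallest p in each direction at a mean of at least 5 CPM, 2 per list, genes with opposite calls, 8 with small errors among those called at both ages, and 15 preset genes; genes named after their values were seen are marked, and a few genes under the rule are not reported here. The labels state no pairing by replicate number, so the numbers were not used as pairs. Over genes averaging 5 CPM or more, each library's log2 CPM was taken as a deviation from its group mean. These deviations correlated between -0.639 and 0.484 for same-numbered libraries (6 of 18 over 0.1). Libraries of unlike number were not compared, so these values cannot show whether the numbers pair the samples. Coordinates are from GENCODE M21 and promoters from RefSeq (GRCm38.p6).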

Additional observations from a re-analysis of the deposited data

How the results depend on the processing

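Every change of effect rests on 3 libraries a group. Of 26 alternatives, 12 of which left out 1 library, DESeq2 alone called any gene (16 positive, 18 negative); in each other one the smallest adjusted p was over 0.05, the lowest being 0.088 without 28W-KO replicate 2. Unadjusted counts ran from 726 without 28W-Con replicate 1 to 1960 without 20W-KO replicate 3. Over all alternatives, 47 values of list medians moved by more than the spread between replicates and 681 did not, and 48 single-gene values took the opposite sign. The older edgeR estimate is the setting of the reported fit, so that alternative could only repeat it. Genes listed at 1 age alone had at most 13 (20 weeks) or 15 (28 weeks) counts in total. None passed the filter, so including the genes listed at either age also gave the reported values again. Both stand among the 26 alternatives and in the values that did not move, and neither is a check. Except where stated, the cause was not tested.

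Counts of calls at each age moved most. DESeq2 gave 1322 genes higher in the knockout at 20 weeks, 1816 called alike at both ages and 967 called at 20 weeks alone. Limma voom with sample weights gave 2642 higher and 2933 lower at 28 weeks, 186 called at 20 weeks alone and 3946 at 28 weeks alone. With the replicate number as a block (replicate block), 383 genes were called at 20 weeks alone and 0 in opposite directions, and the block changed no call of the change of effect. With 28W-Con2 and 28W-Con3 summed, 769 were higher at 28 weeks, 706 were called alike, 0 oppositely and 1254 at 28 weeks alone. Without both knockout libraries numbered 1, 1157 were higher at 20 weeks, 1925 called alike and 0 oppositely. Each age fitted alone gave 696 called alike and 0 oppositely. With 1 library left out, genes higher at 20 weeks ran from 249 to 1020, lower at 20 weeks from 328 to 1332, higher at 28 weeks from 762 to 1475, lower at 28 weeks from 993 to 2093, called alike from 458 to 1600, oppositely from 0 to 2, at 20 weeks alone from 122 to 952 and at 28 weeks alone from 906 to 2986.

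List medians with 1 library left out ran from -1.18 to -0.45 for podocyte genes, 0.20 to 0.62 for smooth muscle, -1.04 to -0.19 for pericytes, -1.34 to 1.49 for epithelial junctions, -0.93 to 2.78 for the loop of Henle, -0.60 to 0.54 for the proximal tubule, -0.50 to 0.94 for parietal epithelium, -0.74 to 0.17 for endothelium, 0.52 to 2.25 for leukocytes, -1.32 to -0.22 for mesothelium, -0.47 to 0.14 for complement, 0.12 to 1.52 for chemokines, 0.14 to 0.61 for interferon genes, -0.42 to -0.16 for the cell cycle, -0.18 to 0.11 for endoplasmic reticulum stress, -0.34 to -0.093 for lipid genes, -0.21 to 0.11 for glycolysis and 0.28 to 0.47 for antioxidant enzymes. Voom gave -0.47 for podocyte genes, -0.19 for YAP/TAZ targets, 0.86 for leukocytes, -1.11 for mesothelium, 0.044 for the p53 list and -0.14 for endoplasmic reticulum stress. Without both knockout libraries numbered 1, the loop of Henle list had 0.89, endothelium 0.41, oxidative phosphorylation 0.12, antioxidant enzymes 0.29 and ribosomal proteins 0.37. With no filter on low counts mesothelium had -0.031, and 0 genes were called oppositely.

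The next alternatives were chosen after seeing the data. Without 28W-Con1 and 28W-KO1, 1145 genes were higher at 20 weeks, 0 were called oppositely and 1181 at 28 weeks alone. List medians were then -0.23 for podocyte genes, -0.054 for the Hippo core, -0.040 for YAP/TAZ targets, 0.098 for pericytes, 0.45 for endothelium, -1.13 for mesothelium, 0.78 for interferon genes, 0.16 for oxidative phosphorylation, -0.012 for lipid genes, -0.028 for histone methylation, 0.26 for antioxidant enzymes and 0.34 for ribosomal proteins. With the length trend removed, 0 genes were called oppositely and medians were 0.0093 for oxidative phosphorylation, -0.020 for histone methylation, 0.081 for antioxidant enzymes and 0.26 for ribosomal proteins. The newer edgeR estimate called 2 genes oppositely.

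Single genes of the opposite sign were the following. With no filter, Hadhb had -0.0054 and Pex19 -0.010. At 1 CPM in 3 libraries, Dcaf8 had 0.022, Mcl1 0.010 and Wwtr1 0.010. With voom, Dcaf8 had 0.0020, Mcl1 0.015, Yap1 0.12, Wwtr1 0.098, Krt18 -0.80 and Myh11 0.16. Without both knockouts numbered 1, Hadhb had -0.11, Pex19 -0.040, Yap1 0.025, Wwtr1 0.043 and Myh11 0.52. Without 28W-Con1 and 28W-KO1, Mcl1 had 0.039, Yap1 0.28, Wwtr1 0.23, Ccn2 0.13, Wt1 0.18, Krt18 -0.35 and Myh11 1.08. With the length trend removed, ND3 had -0.070, Ppic -0.18, Aldh3a2 0.12, Dcaf8 0.12, Sccpdh -0.023, Mcl1 0.15, Yap1 0.031, Wwtr1 0.096 and Myh11 0.094. With 1 library left out, Hadhb ran from -0.013 to 0.10, Dcaf8 from -0.097 to 0.033, Pex19 from -0.0072 to 0.099, Mcl1 from -0.079 to 0.0068, Yap1 from -0.32 to 0.11, Wwtr1 from -0.14 to 0.096, Krt18 from -0.16 to 1.81 and Myh11 from -0.48 to 0.51.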

Other observations

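The 17 complement genes tested had a median change of the knockout effect of -0.02, with 8 positive and 9 negative, while 7 rose at 20 weeks and 6 at 28 weeks and 0 fell. C3, the central complement component, was at 18.9, 5.27 and 13.9 CPM in 20W-Con and 140.2, 141 and 125 in 20W-KO, where it rose (3.42, adjusted p = 0.0241 in edgeR), and at 101, 15.6 and 14.1 CPM in 28W-Con against 22.0, 70.6 and 82.7 in 28W-KO. Its change of effect was -3.00, -1.46 without 28W-Con1 and -1.05 without both 28W-Con1 and 28W-KO1. Cell cycle genes had a median of -0.24, with 25 of 34 negative and 5 of these at an unadjusted p under 0.05, among them the replication licensing gene Mcm6 (-0.60 ± 0.21). The 25 genes of the p53 response had a median of 0.22; Mdm2, which encodes the ubiquitin ligase that restrains p53 and is induced by it, fell by 1.00 at 20 weeks (adjusted p = 0.00393), was not called at 28 weeks (-0.33, adjusted p = 0.133) and had a change of effect of 0.67 ± 0.20.

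In the TGF-beta and BMP list, with a median of -0.29 and 24 of 33 negative, Bmp7, a kidney-protective growth factor, fell at both ages, from 22.6, 21.1 and 24.4 to 10.1, 7.58 and 6.70 CPM at 20 weeks (-1.48) and from 45.9, 29.6 and 27.0 to 5.29, 6.38 and 4.53 CPM at 28 weeks (-2.66), a change of effect of -1.18 ± 0.33. Among lipid genes (median -0.27, 36 tested), Scd2, a fatty acid desaturase, fell at 28 weeks (-1.18, adjusted p = 0.00377) and had -1.21 ± 0.29, and Cd36, a fatty acid and scavenger receptor, rose at 28 weeks (2.70, adjusted p = 0.0083) and had 1.80 ± 0.77, or 1.13 without 20W-Con3. The 38 histone lysine methylation genes had a median of -0.20, and of -0.02 with the length trend removed; the 2 with an unadjusted p under 0.05 were the demethylase genes Kdm2b (-0.57 ± 0.19) and Kdm4a (-0.55 ± 0.25). The medians were 0.01 for glycolysis, 0.02 for endoplasmic reticulum stress, -0.08 for immediate early and heat shock genes, 0.10 for mitochondrially encoded genes, -0.21 for endothelial markers and -0.55 for mesothelial ones.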
